A study of Mus musculus with 6 samples.

Results

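The synaptic vesicle, endocytosis and release genes are 40 genes of the mouse whose products build synaptic vesicles, load them with transmitter, fuse them with the plasma membrane and take their membrane back. They were taken by gene symbol from a fixed list of 40 names, and all 40 were found among the 55401 genes of the expression table. The rule itself uses no measured value. They were followed in adult mouse neural retinal progenitor cells (mNRPCs) in which Ifitm3 was knocked down. Ifitm3 encodes an interferon-induced transmembrane protein of endosomes and the plasma membrane that restricts the entry of viruses.

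In a neuron, vesicle transporters fill a synaptic vesicle with transmitter, and the active zone and priming proteins bring it to the release site. A rise in calcium, sensed by synaptotagmins, then lets SNARE proteins fuse the vesicle with the plasma membrane. NSF and its SNAP adaptors pull the spent SNARE complexes apart, and clathrin, dynamin and synaptojanin retrieve the membrane by coating, scission and uncoating. Clathrin, dynamin 2 and alpha-SNAP serve membrane traffic in every cell, whereas the synapsins, vesicular transporters, Bassoon and Piccolo are proteins of the mature presynapse. Retinal progenitors carry no synapses, so that the list mixes genes of general membrane traffic with genes of differentiated neurons.

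One group was transfected with an siRNA against Ifitm3 (3 libraries, Ifitm3 siRNA) and the other with a control siRNA (3 libraries). The study lipofected its siRNA and took RNA at 48 h. Its sequencing methods name the controls only as mNRPCs and do not describe their transfection. All the cells came from an mNRPC culture that the laboratory had established earlier, kept on Matrigel with N2/B27, bFGF, the GSK3 inhibitor CHIR99021 and 2-mercaptoethanol. The sources give no age beyond adult, no strain, and no word on whether the replicates were separate cultures, and p-values then reflect only how these libraries vary, possibly for technical reasons.

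Expression was given as FPKM, fragments mapped to a gene after scaling for its length and for the size of the library. The read number behind each library is unknown, so no counting error is given. Ifitm3 was at 349.7, 546.4 and 398.5 FPKM in the Ifitm3 siRNA libraries, against 3121, 2120 and 2509 FPKM in the control siRNA libraries. Of the retinal progenitor markers, 9 averaged at least 0.5 FPKM (Pax6, Six3, Sox2, Lhx2, Nes, Vim, Hes1, Ccnd1 and Mki67), all overlapping between the groups, while Rax and Six6 were listed at 0 in all 6. Pax6 was at 8.39 to 12.40 FPKM in Ifitm3 siRNA libraries and 10.83 to 13.72 FPKM in control siRNA libraries. Of 10 neuron markers, 2 averaged at least 0.5 FPKM (Tubb3 and Nefm). The summed level of all 10 was 5.17 to 8.99 FPKM in Ifitm3 siRNA libraries and 6.06 to 10.15 FPKM in control siRNA libraries. The neuronal genes Rbfox3, Elavl3, Snap25 and Dcx stayed at or below 0.10 FPKM in every library, and Stmn2 did not exceed 0.26 FPKM. Map2 was at 0.22, 0.65 and 0.32 FPKM in Ifitm3 siRNA libraries, against 0.19, 0.68 and 0.10 FPKM in control siRNA libraries, highest in both replicate 2 libraries. Of 11 amacrine, bipolar, horizontal and ganglion cell markers, 3 averaged at least 0.5 FPKM (Tfap2a, Slc6a9 and Prkca). Of 6 Mueller glia and astrocyte markers 2 did (Glul and Aqp4), and all of these overlapped between the groups. Photoreceptor, endothelial, microglia and pigment epithelium markers had 0 members at 0.5 FPKM on average, and 4 of 9 fibroblast and pericyte markers passed it, led by Col3a1. Both replicate 2 libraries stood apart from the other 4 on the first principal component of all genes, which held 37.1% of the variance. The second component held 22.3% and separated the groups.

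Of the 40 genes, 17 reached 0.5 FPKM in all 6 libraries, 5 in some and 18 in none. The count per library was 17, 19 and 19 in the Ifitm3 siRNA libraries and 18, 19 and 19 in the control siRNA libraries, so that about the same number was detected in both groups. The summed level of the 40 genes was 334.0, 308.2 and 333.5 FPKM in Ifitm3 siRNA libraries, against 309.1, 296.9 and 296.7 FPKM in control siRNA libraries. Most of this sum came from 6 genes above 10 FPKM on average. These were the clathrin light chains Clta and Cltb, the clathrin heavy chain Cltc, alpha-SNAP (Napa), amphiphysin II (Bin1) and dynamin 2 (Dnm2). At the other end, 11 genes stayed under 0.1 FPKM in every library, among them Bassoon (Bsn), Piccolo (Pclo), synapsins II and III (Syn2 and Syn3) and the vesicular glutamate transporter Slc17a6. The acetylcholine transporter Slc18a3 was listed at 0 in all 6.

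**Figure D1:**
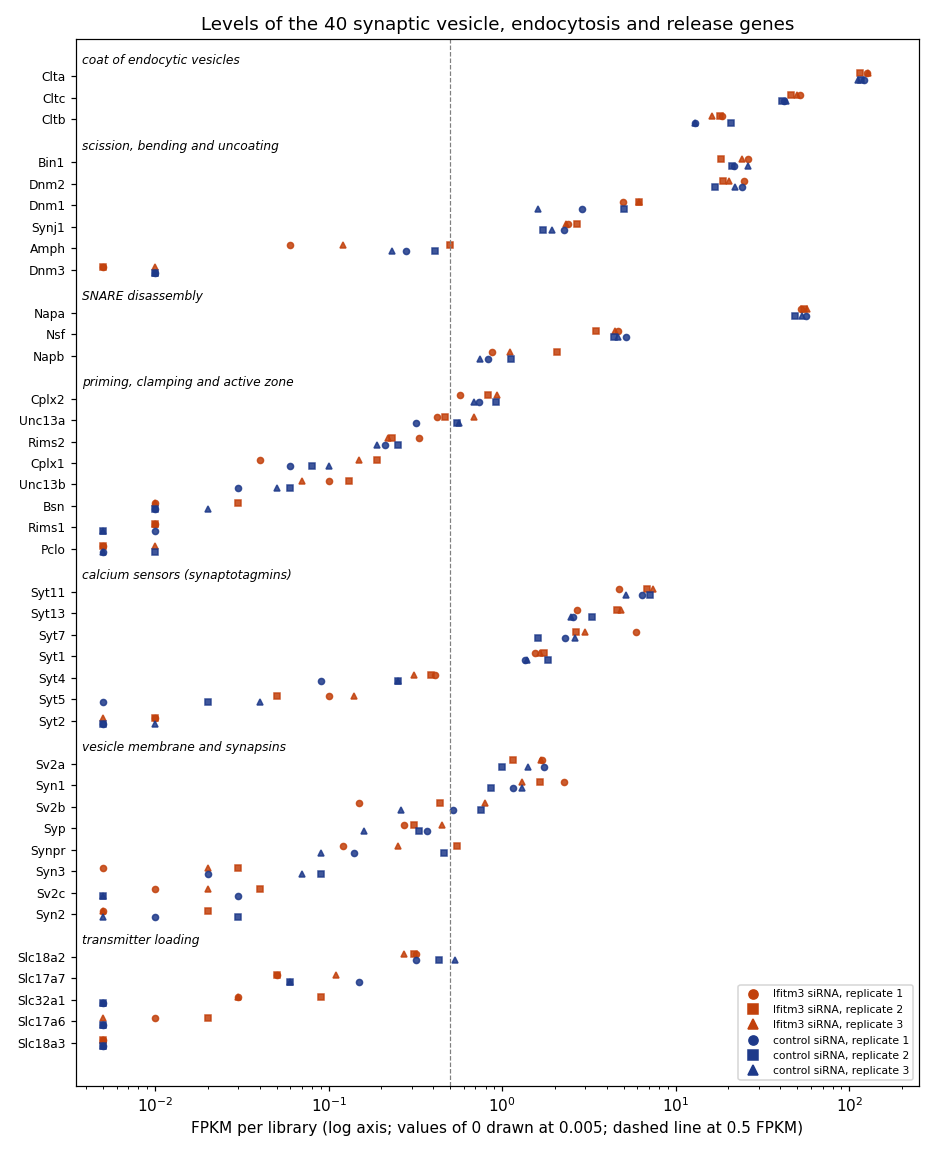
FPKM of each of the 40 genes in each library on a log axis, grouped by role, with Ifitm3 siRNA libraries in orange above control siRNA libraries in blue and the symbol giving the replicate. Clathrin subunits lie between 12.83 and 128.1 FPKM, while 18 genes stay left of the dashed line at 0.5 FPKM in every library.

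For the comparison, a gene had to average 0.5 FPKM or more, which 13588 genes did, 18 of the 40 among them. These were compared by limma on the log2(FPKM + 0.1) scale. A fold change on this scale understates the change of genes at a low level. At an unadjusted p under 0.05, 1 of these 18 was higher after the Ifitm3 siRNA (Dnm1) and 0 were lower, where 5.32% of all tested genes were higher and 3.37% lower. A count of 1 in 18 is near that background. With the thresholds of the study (a log2 fold change beyond 1 in either direction and an unadjusted p under 0.05), 0 of the 18 passed upwards or downwards, against 0.927% and 0.5% of all tested genes. After adjustment over all 13588 genes none of the 18 passed 0.05, and 0.00736% of all genes did. Ifitm3, the target of the siRNA, did not pass it either, with a log2 fold change of -2.589 (adjusted p = 0.1001, limma). Missing the adjusted threshold therefore does not show that a gene was unchanged.

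The log2 fold change was above 0 for 15 of the 18 tested genes, against 56.8% of all tested genes, and its median was 0.13 over the 18 and 0.045 over all genes. In 4 of the 18 (Syn1, Syt7, Cltc and Synj1) every Ifitm3 siRNA library was above every control siRNA library, and in 0 it was below, where 9.96% and 5.69% of all tested genes were arranged in these ways. At that unadjusted threshold the 13588 genes split into 723 higher and 458 lower. This split depended on the scaling, and median-ratio scaling gave 544 higher and 602 lower. Under that scaling 13 of the 18 were above 0, against 6859 of all 13588 tested genes, and the medians were 0.091 over the 18 and 0.0027 over all genes. An exact permutation test of 3 against 3 libraries cannot give a p below 0.1 for any single gene.

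**Figure D2:**
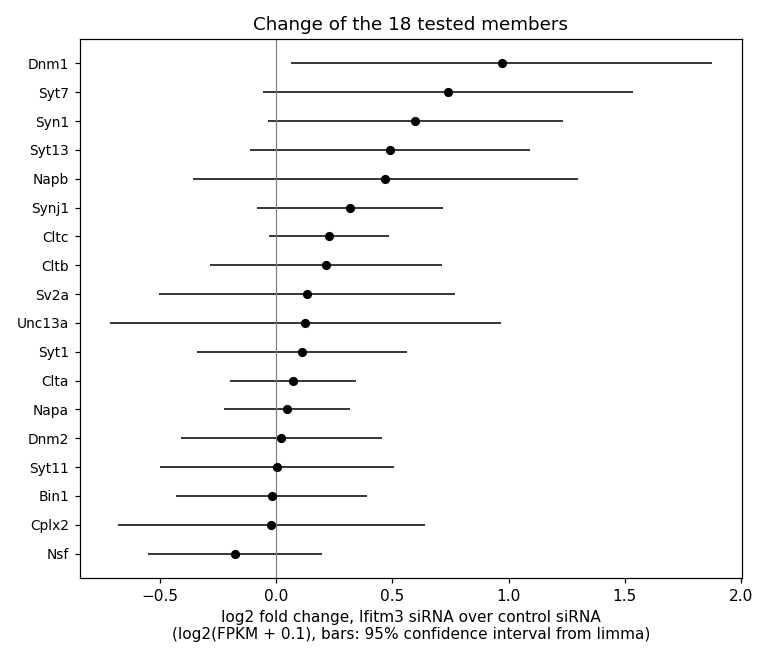
Log2 fold change of the 18 tested genes, Ifitm3 siRNA over control siRNA, on the log2(FPKM + 0.1) scale, with the 95% confidence interval from limma as a bar. Dnm1 at 0.97 has the only interval that does not reach 0, and Nsf at -0.17 is the lowest.

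Among the genes of scission, bending and uncoating, dynamin 1 (Dnm1), the neuronal member of the GTPases that cut endocytic pits from the membrane, showed the largest difference of the 18. It was at 4.98, 6.09 and 6.13 FPKM in Ifitm3 siRNA libraries, against 2.87, 5.04 and 1.61 FPKM in control siRNA libraries. The Ifitm3 siRNA libraries were alike, while the control siRNA libraries spread widely and their replicate 2 lay within the Ifitm3 siRNA range. Its log2 fold change was 0.97 ± 0.38 (SE), under the unadjusted 0.05 but with an adjusted p = 0.565 (limma). It no longer passed the unadjusted threshold after quantile normalization, nor when any single library other than control siRNA replicate 2 was left out. Without control siRNA replicate 3 the log2 fold change was 0.57, and without control siRNA replicate 2 it was 1.37.

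Dynamin 2, the member found in all tissues, was at 24.79, 18.73 and 20.15 FPKM in Ifitm3 siRNA libraries, against 24.12, 16.83 and 22.02 FPKM in control siRNA libraries. These groups overlapped, and the log2 fold change was 0.022 ± 0.18 (SE, adjusted p = 0.979). Exons of Dnm2 overlap those of Tmed1 on the opposite strand, which averaged 17.36 FPKM, and since the sources name no strand setting for the counting, reads of the pair may not have been told apart. Dynamin 3 did not exceed 0.01 FPKM. Dnm1 therefore took 16.7%, 24.5% and 23.3% of the summed dynamin FPKM in Ifitm3 siRNA libraries, against 10.6%, 23.0% and 6.81% in control siRNA libraries. The share overlapped between the groups (exact permutation test, two-sided p = 0.2). It was 1 of 5 proportions between related genes that were chosen after the values had been seen, and its p adjusted over the 5 was 0.5.

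The stretch before the start of both dynamin genes is shown because these paralogs stood at different levels and only Dnm1 passed the unadjusted threshold. The sequences are those of RefSeq on GRCm38.p6, read 5′ to 3′ on the strand of the gene and stopped where the annotated gene begins. The Dnm1 stretch is chr2:32353339-32353579 on the minus strand, with capitals at CG, and the Dnm2 stretch is chr9:21424658-21424907 on the plus strand, with capitals at CCAAT or its complement.
Dnm1: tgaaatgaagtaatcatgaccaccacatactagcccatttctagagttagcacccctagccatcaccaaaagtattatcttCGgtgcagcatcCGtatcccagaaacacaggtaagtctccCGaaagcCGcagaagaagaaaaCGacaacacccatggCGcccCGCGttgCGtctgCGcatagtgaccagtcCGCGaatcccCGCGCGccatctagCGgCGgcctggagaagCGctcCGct
Dnm2: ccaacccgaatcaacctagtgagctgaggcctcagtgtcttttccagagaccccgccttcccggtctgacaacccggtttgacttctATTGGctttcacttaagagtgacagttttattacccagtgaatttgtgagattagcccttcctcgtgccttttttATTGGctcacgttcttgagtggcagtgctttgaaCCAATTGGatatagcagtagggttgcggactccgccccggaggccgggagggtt

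The full 250 bases before the start of Dnm1 held 20 CG pairs, for a ratio of observed to expected CG of 1.08, and no CCAAT box. Those of Dnm2 had a ratio of 0.61 and 4 CCAAT boxes, of which the last ones overlap on opposite strands, a string present in the same stretch of 33.8% of the 32851 promoters of the table.

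Synaptojanin 1 (Synj1, chr16:90936092-91011308 on GRCm38), the phosphoinositide phosphatase that releases the clathrin coat, was at 2.38, 2.71 and 2.33 FPKM in Ifitm3 siRNA libraries, against 2.27, 1.71 and 1.94 FPKM in control siRNA libraries. The groups did not overlap, and the lowest Ifitm3 siRNA library (2.33 FPKM) was just above the highest control siRNA library (2.27 FPKM). Synj1 had a log2 fold change of 0.32 ± 0.17 (SE, adjusted p = 0.622). Bin1, which bends membrane and binds dynamin, was at 25.96, 18.18 and 23.97 FPKM in Ifitm3 siRNA libraries, against 21.60, 20.95 and 25.96 FPKM in control siRNA libraries. Its groups overlapped and its log2 fold change was -0.018 ± 0.17 (SE). Amphiphysin (Amph) was not tested, with 0.06, 0.50 and 0.12 FPKM in Ifitm3 siRNA libraries, against 0.28, 0.41 and 0.23 FPKM in control siRNA libraries.

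The coat of endocytic vesicles was the most abundant part of the list. Clathrin heavy chain (Cltc), the leg of the clathrin triskelion, was at 51.56, 46.05 and 49.83 FPKM in Ifitm3 siRNA libraries, against 42.07, 40.61 and 43.16 FPKM in control siRNA libraries. All 3 Ifitm3 siRNA libraries were higher, with means of 49.15 ± 2.82 FPKM in Ifitm3 siRNA libraries and 41.95 ± 1.28 FPKM in control siRNA libraries (SD, n = 3 each). The log2 fold change was 0.23 ± 0.11 (SE, adjusted p = 0.598, limma), which did not pass the unadjusted threshold either. After quantile normalization it was 0.26, and Cltc in place of Dnm1 was then the 1 gene of the list under the unadjusted 0.05.

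The light chains, which cover the heavy chain and regulate assembly, did not show a difference beyond the spread. Clta was at 126.1, 115.4 and 128.1 FPKM in Ifitm3 siRNA libraries, against 122.0, 116.3 and 112.7 FPKM in control siRNA libraries (log2 fold change 0.073 ± 0.11, SE). Cltb was at 18.55, 17.86 and 16.24 FPKM in Ifitm3 siRNA libraries, against 12.86, 20.85 and 12.83 FPKM in control siRNA libraries. Control siRNA replicate 2 was the highest of all 6 for Cltb and the other controls the lowest, so that the log2 fold change of 0.21 ± 0.21 (SE, adjusted p = 0.779) became 0.45 without it and passed the unadjusted threshold. Without control siRNA replicate 1 or 3 it was 0.099 and 0.097. Heavy chain FPKM was 35.7%, 34.6% and 34.5% of the summed light chain FPKM in Ifitm3 siRNA libraries, against 31.2%, 29.6% and 34.4% in control siRNA libraries. The groups did not overlap (exact permutation test, two-sided p = 0.1, the smallest possible, and 0.5 adjusted over the 5 proportions). Cltb made up 12.8%, 13.4% and 11.3% of the light chains in Ifitm3 siRNA libraries and 9.53%, 15.2% and 10.2% in control siRNA libraries, which overlapped (p = 0.8 in the same exact test).

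**Figure D3:**
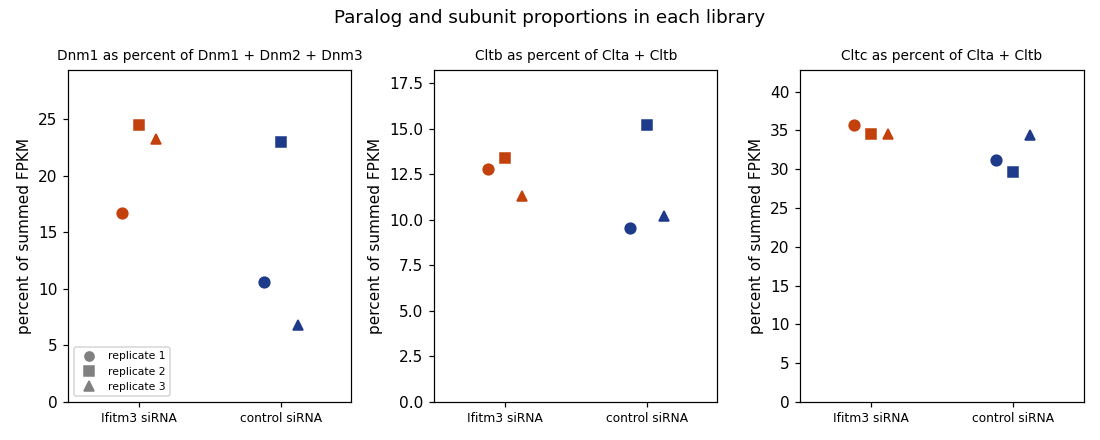
Dnm1 as a percentage of the summed dynamin FPKM, and Cltb and Cltc as percentages of the summed light chain FPKM, in each library, with Ifitm3 siRNA left of control siRNA and the symbol giving the replicate. Control siRNA replicate 2 lies within the Ifitm3 siRNA range for Dnm1 at 23.0% and above it for Cltb at 15.2%.

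Of the calcium sensors, 4 of 7 synaptotagmins were tested. Syt7 (chr19:10389090-10453180 on GRCm38) is a slow sensor of high calcium affinity that also serves lysosome exocytosis and membrane repair outside neurons. It was at 5.87, 2.67 and 3.01 FPKM in Ifitm3 siRNA libraries, against 2.30, 1.60 and 2.61 FPKM in control siRNA libraries. The groups did not overlap, but 1 library, Ifitm3 siRNA replicate 1, was far above the rest and the others lay close to the controls. Its log2 fold change was 0.74 ± 0.33 (SE, adjusted p = 0.598, limma), short of the unadjusted threshold. With single libraries left out it lay between 0.40 and 0.95, and the highest of these, without Ifitm3 siRNA replicate 2, passed the unadjusted threshold. Syt7 made up 38.3%, 16.5% and 17.4% of the FPKM of the 7 synaptotagmins in Ifitm3 siRNA libraries and 18.1%, 11.4% and 21.8% in control siRNA libraries, which overlapped (exact permutation test, p = 0.6).

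Syt13 (chr2:92915098-92956058), a synaptotagmin without the usual calcium-binding residues, was at 2.69, 4.59 and 4.80 FPKM in Ifitm3 siRNA libraries, against 2.55, 3.28 and 2.49 FPKM in control siRNA libraries. Here Ifitm3 siRNA replicate 1 was the library close to the controls, whereas it was the high one for Syt7. Syt13 had a log2 fold change of 0.49 ± 0.25 (SE, adjusted p = 0.615), and without that library it was 0.75 and passed the unadjusted threshold. Syt11, likewise not a calcium sensor and known to restrain endocytosis, was at 4.72, 6.78 and 7.40 FPKM in Ifitm3 siRNA libraries, against 6.40, 7.10 and 5.18 FPKM in control siRNA libraries. Syt1, the fast sensor of synchronous release, was at 1.54, 1.73 and 1.64 FPKM in Ifitm3 siRNA libraries, against 1.35, 1.83 and 1.38 FPKM in control siRNA libraries. Both overlapped, with log2 fold changes of 0.0031 ± 0.21 (SE) for Syt11 and 0.11 ± 0.19 (SE) for Syt1.

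The untested synaptotagmins were low. Syt4 was at 0.41, 0.39 and 0.31 FPKM in Ifitm3 siRNA libraries, against 0.09, 0.25 and 0.25 FPKM in control siRNA libraries. Syt5 was at 0.10, 0.05 and 0.14 FPKM in Ifitm3 siRNA libraries, against 0, 0.02 and 0.04 FPKM in control siRNA libraries. In both genes all Ifitm3 siRNA libraries were higher at levels under the limit for testing. Syt2 did not exceed 0.01 FPKM in any library.

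**Figure D4:**
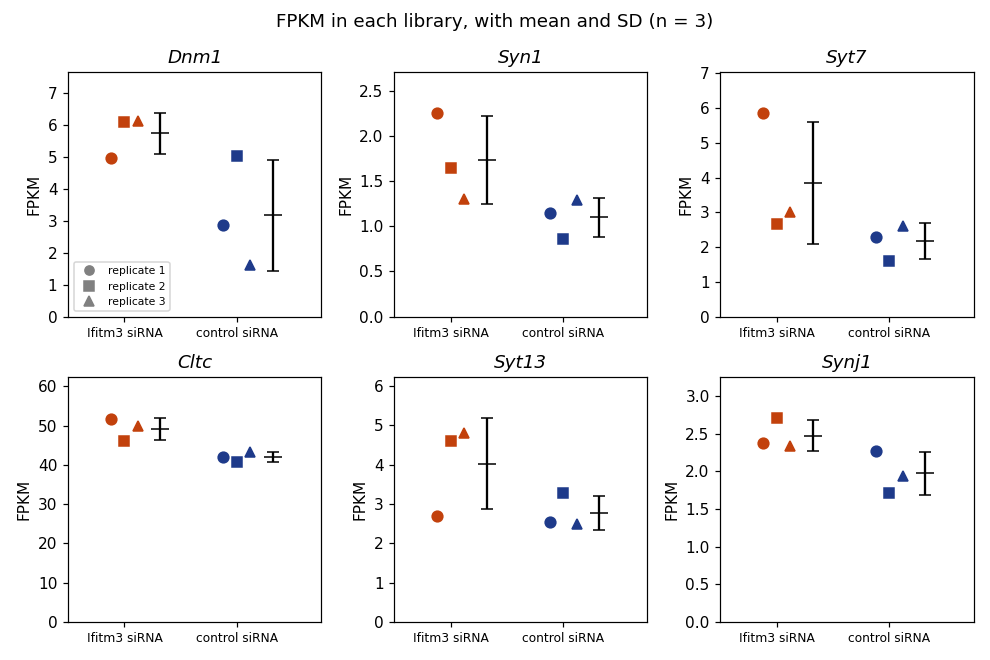
FPKM in each library for the 6 tested genes with the smallest p, with Ifitm3 siRNA in orange left of control siRNA in blue, and the mean and SD (n = 3) as a bar beside the points. Syn1, Syt7, Cltc and Synj1 do not overlap between the groups, while control siRNA replicate 2 of Dnm1 (5.04 FPKM) and Ifitm3 siRNA replicate 1 of Syt13 (2.69 FPKM) do.

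Among the vesicle membrane proteins and synapsins, 2 of 8 genes were tested. Synapsin I (Syn1), the phosphoprotein that tethers vesicles to each other and to actin, was at 2.26, 1.65 and 1.30 FPKM in Ifitm3 siRNA libraries, against 1.15, 0.86 and 1.29 FPKM in control siRNA libraries. The groups did not overlap, by 0.01 FPKM between replicate 3 of both. Its log2 fold change was 0.60 ± 0.27 (SE, adjusted p = 0.594, limma), short of the unadjusted threshold. It passed that threshold without the mean-variance trend and without Ifitm3 siRNA replicate 3, where it was 0.78. Exons of Syn1 overlap those of Araf on the opposite strand, which averaged 6.68 FPKM, so that reads of this pair, too, may not have been told apart.

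The stretch before the start of Syn1 is shown as that of a gene of differentiated neurons, and that of Cltc as the counterpart of a gene used by every cell. Syn1 is chrX:20921005-20921168 on the minus strand, with capitals at TTCAGCACC, a part of the RE1 element that the repressor REST binds in genes of neurons. Cltc is chr11:86757568-86757817 on the minus strand, with capitals at CG.
Syn1: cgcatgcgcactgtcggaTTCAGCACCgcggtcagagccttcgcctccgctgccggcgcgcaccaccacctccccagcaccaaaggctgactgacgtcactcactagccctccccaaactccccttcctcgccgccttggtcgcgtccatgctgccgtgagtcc
Cltc: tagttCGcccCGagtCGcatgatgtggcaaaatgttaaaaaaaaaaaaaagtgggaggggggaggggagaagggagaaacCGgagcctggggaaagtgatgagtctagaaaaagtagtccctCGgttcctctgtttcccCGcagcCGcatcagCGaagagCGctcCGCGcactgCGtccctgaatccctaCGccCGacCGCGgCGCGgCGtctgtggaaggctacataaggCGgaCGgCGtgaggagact

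The marked string of Syn1 begins 232 bases before the RefSeq start, and it occurred in the 250 bases before the start of 0.301% of all promoters and in no other promoter of the list. The same stretch of Syn1 also held a cAMP response element (TGACGTCA), a string in 1.55% of all promoters that only Cltb shared within the list. A promoter was found for 33 of the 40 symbols, and some symbols had several, 43 promoters in all. Of these, 18 belonged to tested and 25 to untested genes. The ratio of observed to expected CG had a median of 0.69 in tested genes, 0.56 in untested genes and 0.37 over all promoters, and the CG ratio of Cltc was 1.07. In all, 9 strings were searched on both strands and chosen after sequences and levels had been looked at. The GC box (GGGCGG) was in 9 promoters of tested and 14 of untested genes (32.7% of all promoters), CCAAT in 4 and 5, and the E-box (CACGTG) in 2 and 2 (6.02%). CAGCACC, which lies within the Syn1 string, was in 2 and 1 (5.73%), and GGACAG, from the other end of RE1, in 4 and 6 (18.7%). TATAAA was in 0 and 2 (12.4%), and the palindromic NRF1 element in 0 and 1 (0.782%). A match is a description of the letters and no sign of binding.

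Sv2a, a glycoprotein of the vesicle membrane, was at 1.70, 1.15 and 1.67 FPKM in Ifitm3 siRNA libraries, against 1.73, 1.00 and 1.40 FPKM in control siRNA libraries. The groups overlapped, both replicate 2 libraries were the lowest, and the log2 fold change was 0.13 ± 0.27 (SE). Its paralog Sv2b, the highest of the untested genes in a single library, was at 0.15, 0.44 and 0.79 FPKM in Ifitm3 siRNA libraries, against 0.52, 0.75 and 0.26 FPKM in control siRNA libraries. Synaptoporin (Synpr) was at 0.12, 0.55 and 0.25 FPKM in Ifitm3 siRNA libraries, against 0.14, 0.46 and 0.09 FPKM in control siRNA libraries, with both replicate 2 libraries on top. Synaptophysin (Syp), an abundant protein of the synaptic vesicle in neurons, did not exceed 0.45 FPKM in any library.

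None of the 5 transporters that load transmitter was tested. Slc18a2, which loads monoamines, was at 0.32, 0.31 and 0.27 FPKM in Ifitm3 siRNA libraries, against 0.32, 0.43 and 0.53 FPKM in control siRNA libraries. The GABA and glycine transporter Slc32a1 was at 0.03, 0.09 and 0.03 FPKM in Ifitm3 siRNA libraries and was listed at 0 in all control siRNA libraries, so no fold is given. The glutamate transporters Slc17a6 and Slc17a7 did not exceed 0.02 and 0.15 FPKM.

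The machinery that takes SNARE complexes apart was detected whole, and none of its 3 genes differed beyond the spread. Nsf, the ATPase, was at 4.63, 3.48 and 4.46 FPKM in Ifitm3 siRNA libraries, against 5.14, 4.37 and 4.64 FPKM in control siRNA libraries (log2 fold change -0.17 ± 0.16, SE, adjusted p = 0.761). Napa, its adaptor in all tissues, was at 52.43, 54.40 and 56.75 FPKM in Ifitm3 siRNA libraries, against 56.51, 48.74 and 53.44 FPKM in control siRNA libraries (0.046 ± 0.11, SE). Beta-SNAP (Napb), the brain form, was at 0.87, 2.06 and 1.11 FPKM in Ifitm3 siRNA libraries, against 0.83, 1.12 and 0.74 FPKM in control siRNA libraries. Ifitm3 siRNA replicate 2 was the highest for Napb and the groups overlapped (0.47 ± 0.35, SE, adjusted p = 0.719), and without that library the log2 fold change was 0.14. Napb was 1.63%, 3.65% and 1.92% of the summed adaptor FPKM in Ifitm3 siRNA libraries and 1.45%, 2.25% and 1.37% in control siRNA libraries (exact permutation test, p = 0.5).

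Of the 8 genes of priming, clamping and the active zone, 2 were tested, both near the limit. Complexin 2 (Cplx2), which clamps the SNARE complex, was at 0.57, 0.83 and 0.93 FPKM in Ifitm3 siRNA libraries, against 0.73, 0.92 and 0.69 FPKM in control siRNA libraries. Munc13-1 (Unc13a), the priming factor, was at 0.42, 0.47 and 0.69 FPKM in Ifitm3 siRNA libraries, against 0.32, 0.55 and 0.56 FPKM in control siRNA libraries. Both overlapped, with log2 fold changes of -0.020 ± 0.28 (SE) for Cplx2 and 0.13 ± 0.35 (SE) for Unc13a. Exons of Unc13a overlap those of Colgalt1 on the opposite strand, which averaged 41.32 FPKM, with the same limit. Munc13-2 (Unc13b) was at 0.10, 0.13 and 0.07 FPKM in Ifitm3 siRNA libraries, against 0.03, 0.06 and 0.05 FPKM in control siRNA libraries, without overlap. Rims2 and Cplx1 did not exceed 0.33 and 0.19 FPKM, and Rims1, Bsn and Pclo did not exceed 0.03 FPKM.

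Among the 22 untested genes, the groups did not overlap in 4 (Syt4, Syt5, Slc32a1 and Unc13b), each higher in the Ifitm3 siRNA libraries, and 0 were lower in all of them. The highest of these values was 0.41 FPKM. Of the 26679 genes above 0 in at least 1 library, tested ones included, 1885 were higher without overlap and 973 lower. The 13588 tested genes held 1353 of the higher and 773 of the lower ones, and the rest were untested genes. Of the 39 list genes among the 26679, 8 were higher and 0 lower. When every gene above 0 in at least 1 library was fitted (26679 genes, of the list 39), Syt5 and Dnm1 were higher at an unadjusted p under 0.05 (adjusted p = 0.717 and 0.765, limma), as were 4.1% of all genes. Slc32a1 was under it too, but it entered that fit only through its Ifitm3 siRNA libraries. Neither its call nor its place among the 4 therefore carries weight. In bulk RNA, more cells that express a gene and more RNA per cell cannot be told apart. Of the neuron markers beside them, Tubb3 was at 2.95, 2.65 and 6.72 FPKM in Ifitm3 siRNA libraries, against 9.34, 4.24 and 6.40 FPKM in control siRNA libraries. Nefm was at 1.81, 1.25 and 1.30 FPKM in Ifitm3 siRNA libraries, against 0.38, 0.71 and 1.62 FPKM in control siRNA libraries. Both of these overlapped between the groups. Nefl, the neurofilament light chain, was at 0.27, 0.21 and 0.10 FPKM in Ifitm3 siRNA libraries, against 0.01, 0.05 and 0.03 FPKM in control siRNA libraries. Elavl4, an RNA-binding protein of neurons, was at 0.03, 0.04 and 0.04 FPKM in Ifitm3 siRNA libraries, against 0, 0 and 0.02 FPKM in control siRNA libraries. Nefl and Elavl4 were thus higher without overlap at low levels, while the other 8 neuron markers overlapped. This arrangement was not limited to neuron markers. The glia marker S100b was at 0.12, 0.09 and 0.06 FPKM in Ifitm3 siRNA libraries and at 0 in all control siRNA libraries. The ganglion cell marker Pou4f1 was at 0.06 FPKM in each Ifitm3 siRNA library, against 0.02, 0 and 0.04 FPKM in control siRNA libraries. No cell marker was lower without overlap. Nefl and Elavl4 come from 10 neuron markers and S100b from 6 Mueller glia and astrocyte markers. Pou4f1 comes from 11 amacrine, bipolar, horizontal and ganglion cell markers. They are to be read against the 1885 of 26679 genes that were higher without overlap. Elavl4 and Pou4f1 differed only in the last decimal given, and S100b was above 0 only in Ifitm3 siRNA libraries, so these carry no weight. The part of neuronal cells in the values of the list was not tested.

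The replicate 2 libraries touched the list in both directions. Both of them were above the other 4 libraries in 5 of the 40 genes (Syn2, Syt1, Synpr, Amph and Napb) and below them in 4 (Sv2a, Dnm2, Bin1 and Nsf). Of the 18 tested genes these were 2 above and 4 below, where 13.2% and 17.7% of all tested genes were so arranged. Without both replicate 2 libraries, 2 of the 18 were higher at an unadjusted p under 0.05, against 5.89% of all tested genes, Dnm1 with a log2 fold change of 1.32 and Cltb with 0.43. Dnm1 then passed the thresholds of the study, as did 1.4% of all tested genes upwards.

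Beyond the 40 genes, 129 partners in the same processes were measured in 6 lists, of which 76 were tested. At an unadjusted p under 0.05, 5 of the 76 were higher and 1 lower, against 5.32% and 3.37% of all tested genes. The log2 fold change was above 0 for 48 of the 76, against 56.8% of all tested genes, and its median was 0.063, against 0.045 over all genes. The partners were thus close to the background, and the counts of the single lists that follow are to be read against the same percentages. No partner had an adjusted p under 0.5. Syt17, from the list of other synaptotagmins, was at 5.13, 3.13 and 4.12 FPKM in Ifitm3 siRNA libraries, against 2.82, 2.15 and 1.36 FPKM in control siRNA libraries. It showed the largest difference of these 6, with a log2 fold change of 0.96 ± 0.30 (SE, adjusted p = 0.501) and no overlap. Of the 19 genes of its list, 2 were tested.

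Of 22 tested release SNAREs and regulators, 18 were above 0 and 2 passed, the plasma membrane syntaxin Stx3 and the SNAP-25 relative Snap29, a SNARE of endosomes and autophagosomes. Stx3 was at 5.30, 5.65 and 4.20 FPKM in Ifitm3 siRNA libraries, against 3.73, 3.71 and 3.70 FPKM in control siRNA libraries, so that the controls were nearly equal and all lower (0.42 ± 0.15, SE, adjusted p = 0.533). Snap29 was at 10.06, 9.89 and 10.43 FPKM in Ifitm3 siRNA libraries, against 8.96, 7.55 and 8.28 FPKM in control siRNA libraries (0.29 ± 0.12, SE, adjusted p = 0.570). The most abundant gene of this list was Stx4a, with a mean of 44.27 FPKM and a log2 fold change of 0.069.

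Of 20 tested AP-2 subunits and endocytic adaptors, 12 were above 0, and 1 passed in each direction. Ap2b1, a large subunit of the AP-2 complex that links cargo to clathrin, was at 23.24, 21.06 and 22.14 FPKM in Ifitm3 siRNA libraries, against 27.27, 25.61 and 26.60 FPKM in control siRNA libraries, all lower (-0.26 ± 0.11, SE, adjusted p = 0.570). Necap1, an AP-2 binding protein of clathrin vesicles, was at 14.89, 14.53 and 13.60 FPKM in Ifitm3 siRNA libraries, against 11.19, 12.35 and 11.73 FPKM in control siRNA libraries, all higher (0.28 ± 0.11, SE, adjusted p = 0.551). Ap2s1, the small AP-2 subunit, was the most abundant at a mean of 65.84 FPKM, with a log2 fold change of -0.016. The other 4 AP-2 subunits overlapped between the groups.

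Of 14 tested partners in bending, scission and uncoating, 6 were above 0 and 1 passed. Synaptojanin 2 (Synj2), the second synaptojanin, was at 5.28, 6.70 and 6.07 FPKM in Ifitm3 siRNA libraries, against 2.84, 5.01 and 4.55 FPKM in control siRNA libraries, without overlap (0.56 ± 0.23, SE, adjusted p = 0.572). Without control siRNA replicate 1, the lowest library, the Synj2 log2 fold change was 0.32 and missed the unadjusted threshold. Synj1, described above, did not overlap between the groups either but passed no threshold. Hspa8, the ATPase that strips clathrin coats, averaged 403.7 FPKM with a log2 fold change of -0.16. Among the active zone scaffold genes 0 of 7 passed, with Lin7c the most abundant (17.55 FPKM, log2 fold change 0.12). Among the remaining vesicle membrane and loading genes 0 of 11 passed, with Scamp3 the most abundant (45.35 FPKM, log2 fold change -0.0034). Of 15 alternative settings, Syt17 missed the unadjusted threshold in 1 (without Ifitm3 siRNA replicate 1), Stx3 in 7, Ap2b1 and Synj2 in 9 each, and Necap1 and Snap29 in 10 each.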

How the data were processed

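Poly(A) RNA of 6 mNRPC libraries was sequenced paired-end on a NovaSeq with a dUTP protocol. The authors deposited FPKM values per gene, with 2 decimals. StringTie 1.3.4d, HISAT2 2.0.4 and cutadapt 1.9 are listed in the submitters' processing notes with hg18, a human build, although the identifiers are those of mouse Ensembl genes. No source names the annotation or a strand setting. The columns carry no unit, and FPKM was taken from the tools and values. Read numbers are unknown, so that no count test was run and the precision of low values cannot be given.

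From the deposited FPKM, log2(FPKM + 0.1) was computed for the 13588 genes that averaged 0.5 FPKM or more and compared with limma 3.58.1 in R 4.3.3 (condition only, mean-variance trend, two-sided, Benjamini-Hochberg over all of these genes). The fit was tested on simulated data with noise independent between libraries and changes planted only in genes above 2 FPKM. Changes of lower genes and deviations shared between libraries were not covered by it. The study names thresholds on logFC (1) and P (0.05) and no test, and these were read as log2 and unadjusted. Alternatives were 2 other pseudocounts, 2 other filters, 2 scalings, no trend, a replicate block, and libraries left out. The genes named were all 40 of the list, Ifitm3 and, of the partner lists, those with p under 0.05 and the most abundant. Further genes were named after their values were seen (cell markers), and part of the progenitor marker list is not reported here. For a symbol with several identifiers, the most abundant was taken. The genes and lists were chosen with earlier results of these data known. Gene positions and overlaps came from GENCODE vM21 and promoters from RefSeq (GRCm38.p6), matched by identifier or symbol. Proportions and promoter strings were computed in Python 3.11.15.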

Additional observations from a re-analysis of the deposited data

How the results depend on the processing

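Of the counts over the 18 tested genes, the number higher at an unadjusted p under 0.05 (1) was 3 of 39 with no filter on low values (Slc32a1 among them, which entered only through its Ifitm3 siRNA libraries), 2 without the mean-variance trend, 2 with the replicate number as a block and 2 without both replicate 2 libraries. It ranged from 0 to 2 when single libraries were left out, with 0 without control siRNA replicate 1 or 3. Over all genes, 1093 of 26679 were higher with no filter. Of the 13588 genes, 747 were higher without the trend, 1001 with the block and 801 without both replicate 2 libraries, against 723 in the original fit. With single libraries left out, 475 to 884 were higher, with 486 without control siRNA replicate 1 and 475 without replicate 3. The number of the 18 past the thresholds of the study (0) was 1 without both replicate 2 libraries and 0 to 1 with single libraries left out, where Dnm1 passed without control siRNA replicate 2. Of the 13588 genes, 190 passed upwards without both replicate 2 libraries and 220 without control siRNA replicate 2, against 126 in the original fit. Genes of the list above 0 were 28 of 39 with no filter, against 15350 of 26679 over all genes. The median of 0.13 over the 18 ranged from 0.082 to 0.21 with single libraries left out, and that over all genes from 0.026 to 0.051. No gene of the list was lower at p under 0.05 or passed the adjusted threshold in any of the 15 alternatives. Genes with values near 0 changed sign. Syt11 was at -0.039 with median-ratio scaling and -0.054 after quantile normalization, and Dnm2 at -0.021 with median-ratio scaling. Without both replicate 2 libraries, Dnm2 was at -0.044, Bin1 at 0.075, Cplx2 at 0.037 and Napa at -0.011. With single libraries left out, Syt11 ranged from -0.12 to 0.20, Sv2a from -0.064 to 0.30, Dnm2 from -0.13 to 0.13, Bin1 from -0.12 to 0.13, Cplx2 from -0.15 to 0.16, Napa from -0.012 to 0.095 and Unc13a from -0.088 to 0.25. The cause of these moves was not tested.

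The replicate numbers were not taken as pairs, since libraries with the same number deviated together with correlations of 0.070, 0.43 and 0.035. With the block, the unadjusted threshold was passed by 1001 genes upwards and 636 downwards over all genes, against 723 and 458 without it, and Syt7 joined Dnm1. Of the 3 numbers, replicate 2 was the only one whose libraries were each other's best match. Across numbers, Ifitm3 siRNA replicate 1 matched control siRNA replicate 3 best (0.36), and Ifitm3 siRNA replicate 3 matched control siRNA replicate 1 best (0.13).

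With 3 libraries in each group, values listed to 2 decimals and unknown read numbers, 22 of the 40 genes were too low to be tested, and the intervals of the tested genes allow changes of either sign for all but Dnm1.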
